A study of Mus musculus with 12 samples.

Results

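Tumors grown from the MC38 mouse colorectal carcinoma line in hosts of 8 genotypes were profiled by single-cell RNA sequencing, and 8 genes for receptors of natural killer (NK) and T cells are described here: Klrc1, Klrc2, Klrd1, Klrk1, Klre1, Klrg1, Klrb1c and Ncr1. The members were chosen by their unique molecular identifier (UMI) counts summed by cell cluster and by tumor, with earlier results of these data known, and were found as the 8 rows of those names among 27457 gene symbols. Levels across clusters and strains are therefore given as a description, and the tests below are no independent support for the choice. All 8 had counts, from 1828 UMIs for Klrb1c to 34554 for Klrd1 over 93126 cells.

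Hosts were female, 8 to 12 weeks old, and received MC38 cells under the skin. They were C57BL/6J mice (B6) or F1 mice of C57BL/6J with a Collaborative Cross strain: CC001/UncJ, CC002/UncJ or CC075/UncJ, which the study classed as responders to antibody against PD-1 (aPD1), CC036/UncJ, CC079/TauUncJ or CC080/TauUncJ, classed as non-responders, and CC007/UncJ, which like B6 is not classed here. At a tumor size of 75 to 110 mm3 each mouse received 200 ug of aPD1 (29F.1A12) or of isotype control (2A3) in 1 injection, and cells were collected 48 hours later and sorted to 90% CD45+ and 10% CD45-. Every host carried 1 B6 haplotype at least, every tumor was the same line, and no untreated tumor was used here. The 48 tumors were sequenced in 12 pools of 4 (2 strains, each with 1 isotype and 1 aPD1 tumor), which gave 10 and 10 tumors of responder strains, 9 and 9 of non-responder strains and 5 and 5 of the others for isotype and aPD1.

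Class is a property of the strain, with 3 strains on each side, so tumors of a strain share 1 F1 genotype and tests over tumors count more replicates than there are genotypes. Reads of the F1 hosts were aligned to the B6 reference, and the part of the non-B6 haplotype in any difference between strains was not tested. Pools 1 to 5 held CC001, CC002, CC079 and CC080 and pools 8 to 12 held CC001, CC002, CC036, CC075, CC080 and B6. Of these pool subsets CC079 was in the first alone and CC036, CC075 and B6 in the second alone, while CC001, CC002 and CC080 were in both. A difference between results of the subsets thus cannot be told apart from their different strains. Isotype and aPD1 tumors shared 0 hashtags, so hashtag and treatment cannot be told apart either.

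Most of these receptors sit in the NK gene complex and are C-type lectin-like proteins. Klrc1 encodes NKG2A and Klrc2 encodes NKG2C, which each pair with CD94, the product of Klrd1, and bind the non-classical class I molecule Qa-1 (H2-T23). NKG2A carries inhibitory motifs that recruit phosphatases such as SHP-1 (Ptpn6), and NKG2C signals through the adaptor DAP12 (Tyrobp). Klrk1 encodes NKG2D, an activating receptor for stress-induced ligands of the Rae1, H60 and Mult1 groups. Klrg1 encodes an inhibitory receptor for cadherins found on differentiated lymphocytes, Klre1 a receptor chain that pairs with the KLRI proteins, and Klrb1c the NK1.1 antigen of B6 mice. Ncr1 encodes NKp46, an activating receptor of NK cells with immunoglobulin-like domains and so not a lectin.

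In GENCODE vM21 on GRCm38, 7 of the 8 genes lie on chromosome 6. From the low coordinate they are Klrg1 (chr6:122270596-122282882, minus strand), Klrb1c (chr6:128778485-128789215, minus), Klre1 (chr6:129577905-129585827, plus), Klrd1 (chr6:129591782-129598775, plus), Klrk1 (chr6:129610323-129623864, minus), Klrc2 (chr6:129647496-129660689, minus) and Klrc1 (chr6:129666015-129678973, minus). Ncr1 lies on chromosome 7 (chr7:4337724-4345164, plus). Klrb1c overlaps 1 annotated gene on its own strand (Gm44511) and the other 7 overlap none.

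RefSeq windows of 250 bases before to 50 after the transcript start (GRCm38.p6) were held for 6 of the 8, with none for Klrd1 and Klrg1. The 4 below are shown because Klrc1 and Klrc2 encode alternative partners of CD94, Klre1 had its highest strain mean in CC075 in several clusters, and Ncr1 lies outside the complex. The core letters bound by RUNX factors, TGTGGT or its reverse complement ACCACA, are in capitals, and every window is printed 5′ to 3′ on the gene's strand.

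Klrc1 (chr6:129678924-129679223, minus): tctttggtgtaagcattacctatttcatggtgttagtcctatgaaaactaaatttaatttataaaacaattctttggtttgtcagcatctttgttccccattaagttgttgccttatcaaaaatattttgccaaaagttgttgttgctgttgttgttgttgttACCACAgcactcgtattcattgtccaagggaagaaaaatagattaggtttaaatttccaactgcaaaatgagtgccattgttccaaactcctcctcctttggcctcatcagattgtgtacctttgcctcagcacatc

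Klrc2 (chr6:129660507-129660806, minus): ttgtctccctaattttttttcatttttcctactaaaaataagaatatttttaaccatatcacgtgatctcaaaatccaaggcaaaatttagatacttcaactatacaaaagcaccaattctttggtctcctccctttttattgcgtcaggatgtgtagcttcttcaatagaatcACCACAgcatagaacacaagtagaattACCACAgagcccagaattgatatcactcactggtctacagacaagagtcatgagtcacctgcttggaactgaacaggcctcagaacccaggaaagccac

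Klre1 (chr6:129577963-129578262, plus): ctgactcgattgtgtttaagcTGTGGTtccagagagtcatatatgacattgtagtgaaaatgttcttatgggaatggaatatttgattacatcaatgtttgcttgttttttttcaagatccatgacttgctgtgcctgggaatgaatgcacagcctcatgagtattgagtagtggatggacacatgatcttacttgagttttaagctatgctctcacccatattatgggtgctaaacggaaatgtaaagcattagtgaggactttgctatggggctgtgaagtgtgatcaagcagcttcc

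Ncr1 (chr7:4337465-4337764, plus): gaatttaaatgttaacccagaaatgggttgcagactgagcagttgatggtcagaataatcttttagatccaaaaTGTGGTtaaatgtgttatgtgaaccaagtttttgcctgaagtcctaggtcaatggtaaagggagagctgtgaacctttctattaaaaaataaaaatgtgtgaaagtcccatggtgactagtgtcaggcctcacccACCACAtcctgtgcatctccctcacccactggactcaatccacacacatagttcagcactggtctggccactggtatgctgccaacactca

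The RUNX core letters were in a window of 6 of 6 members, against 16.76% of all 32851 windows of this length (Klre1 in 1 of its 2 windows). Klrc2, Klre1 and Ncr1 had 2 windows each, so counts over members and shares over windows are unlike units. The T-box letters AGGTGTGA or TCACACCT were in 0 of 6 (1.28% of all windows) and the E-box letters CACGTG in 1 of 6 (7.15%). These letters were chosen after the windows had been read, and a match is a description of the sequence. The printed Klrc2 window was 98.7% identical over 300 bases to the window of Klrc3, a neighbouring gene with 423 UMIs in all cells.

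The transcripts of Klrc1 and Klrc2 were 98.9% identical over 1163 bases, the 3′ part of Klrc1 (bases 824 to 1984) and bases 628 to 1790 of the 2811 of Klrc2. They were 78.7% identical over 633 bases of their 5′ part, and those of Klrc2 and Klrc3 were 87.4% identical over 627 bases. The libraries were made with 5′ chemistry, and how reads shared by these genes were assigned was not tested, so the division of counts between Klrc1 and Klrc2 is uncertain.

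The authors' 27 clusters were kept by their numbers, and names were rebuilt here from marker lists, so they may differ from those of the study. A total of 12021 cells fell in 9 clusters called T/NK cells here (1, 3, 7, 8, 10, 12, 13, 23 and 24), with a median of 1918 UMIs per cell, 80784 to 2256001 UMIs and with 29 to 775 cells per tumor of a classed strain. Levels are counts-per-million (CPM), the UMIs of a gene scaled to the UMIs of all genes in the summed cells, and because 5′ libraries count molecules unequally between genes, levels were compared between cells and tumors and not between genes. The NK list of 10 genes summed to 7358 CPM in cluster 24, with 8 of 10 at 100 CPM or more, while the T cell list summed to 255 CPM there with 0 of 6, so cluster 24 is called NK-like. Cluster 3 held the T cell list at 4125 CPM (6 of 6) and both Cd8a and Cd8b1 (1372 CPM in sum) and is called CD8 T-like. Cluster 8 is Treg-like (regulatory T cell list 3360 CPM, 4 of 4), cluster 23 gamma delta T-like (779 CPM, 3 of 6), and clusters 1, 7, 10 and 13 are T-like. Cd8a and Cd8b1 were also found in other clusters, among them 1, 13 and 7 (907, 819 and 634 CPM in sum). The name CD8 T-like below stands for cluster 3 alone. Cluster 12 is T-like but held the macrophage list at 7015 CPM (6 of 7) beside the T cell list at 1501 CPM, and no doublet caller was run on these cells. Among 87940 distinct cell barcodes 4990 occurred in at least 2 libraries, in 10176 cells.

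Klrc1, Klrc2, Klrg1 and Ncr1 were almost confined to T/NK cells, which held 97.63%, 97.07%, 98.01% and 97.53% of their UMIs. Klre1 followed with 92.56% and Klrb1c with 86.93%. Klrd1 and Klrk1 were different in this respect, with 65.43% and 38.87% of their UMIs in T/NK cells. Clusters 6, 11, 14 and 18 held 31.24% of the Klrd1 UMIs, and macrophage clusters held 35.16% of the Klrk1 UMIs. Values in a single cluster are given with a 95% Poisson interval, which covers counting error only.

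Ncr1 and Klrb1c, the pair that mark NK cells in B6 mice, were highest in cluster 24. Ncr1 stood there at 453 CPM (432 to 474) against 36.2 CPM in cluster 12, 16.6 CPM in cluster 7 and 0.748 CPM in cluster 3. Klrb1c stood at 304 CPM (287 to 321) in cluster 24 against 34.0 CPM in cluster 7, 33.9 CPM in cluster 12 and 4.17 CPM in cluster 3. Both genes thus marked the NK-like cells apart from the CD8 T-like cells, and among genes of at least 50 CPM in 1 cluster the profiles most like that of Ncr1 were those of Klra7 (Pearson r = 0.942) and Klra1 (r = 0.920), further receptors of the NK complex. The nearest to Klrb1c were Klrb1f (r = 0.913) and Ncr1 (r = 0.905). These correlations are over 27 clusters that share libraries, and are a description.

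Klrc1, the inhibitory partner of CD94, was instead highest in the CD8 T-like cells. It stood at 573 CPM (558 to 589) in cluster 3, 487 CPM in cluster 13 and 450 CPM in cluster 1, all above the 330 CPM (312 to 348) of the NK-like cluster. In the Treg-like cells it stood at 113 CPM and in the gamma delta T-like cells at 12.4 CPM. Klrc2, the activating partner, did not separate the same clusters, with 132 CPM in cluster 3, 134 CPM (123 to 146) in cluster 24, 123 CPM in cluster 1 and 103.5 CPM in cluster 7, and 23.9 CPM in cluster 8. Nkg7, a granule membrane gene of cytotoxic cells, had the profile most like that of Klrc1 (r = 0.988), and Klra5 that most like Klrc2 (r = 0.967).

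The share of Klrc1 in the UMIs of Klrc1 and Klrc2 was 81.3% (exact 95% binomial interval 80.3 to 82.2) in cluster 3 and 71.1% (69.0 to 73.1) in cluster 24, with intervals for counting error only over UMIs pooled from all tumors. As a ratio of UMIs this was 4.34 and 2.46. Clusters 8 (4.74) and 13 (4.78) resembled cluster 3, and cluster 7 (2.57) resembled the NK-like cluster. Over T/NK cells the ratio ran by strain from 2.54 in CC036 and 3.10 in CC075 to 4.22 in CC002 and 4.51 in CC001. The same strains held the low end within cluster 3, at 2.85 for CC036 and 3.39 for CC075 against 5.42 in B6. Within cluster 24 B6 (2.11) and CC007 (2.18) stood next to CC036 (2.04) and CC075 (1.86), with 2.48 to 3.46 in the other strains. These ratios are subject to the limit on reads shared between both transcripts.

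Klrd1, the shared CD94 chain, stood at 1193 CPM (1171 to 1215) in cluster 3 and 1008 CPM in cluster 24, followed by cluster 1 at 589 CPM and cluster 7 at 547 CPM. Klre1 stood at 490 CPM (469 to 512) in cluster 24 and 244 CPM in cluster 3, and Klrk1 at 445 CPM and 289 CPM, so both were highest in the NK-like cells. Cluster 7 held Klrk1 at 293 CPM, next to cluster 3. The profile most like that of Klre1 was that of Tbx21 (r = 0.974), the gene for the transcription factor T-bet.

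Klrg1 had an order of its own. It was highest in the Treg-like cells at 221 CPM (209 to 233), then in cluster 1 at 52.6 CPM and in the NK-like cells at 40.2 CPM, and stood at 6.52 CPM in cluster 3. Clusters 1 and 3 both held Cd8a and Cd8b1 (907 and 1372 CPM in sum). Ikzf2, a marker of the Treg list, was among the 2 genes with the most similar profile (r = 0.924), after Rln3 (r = 0.929).

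**Figure D1:**
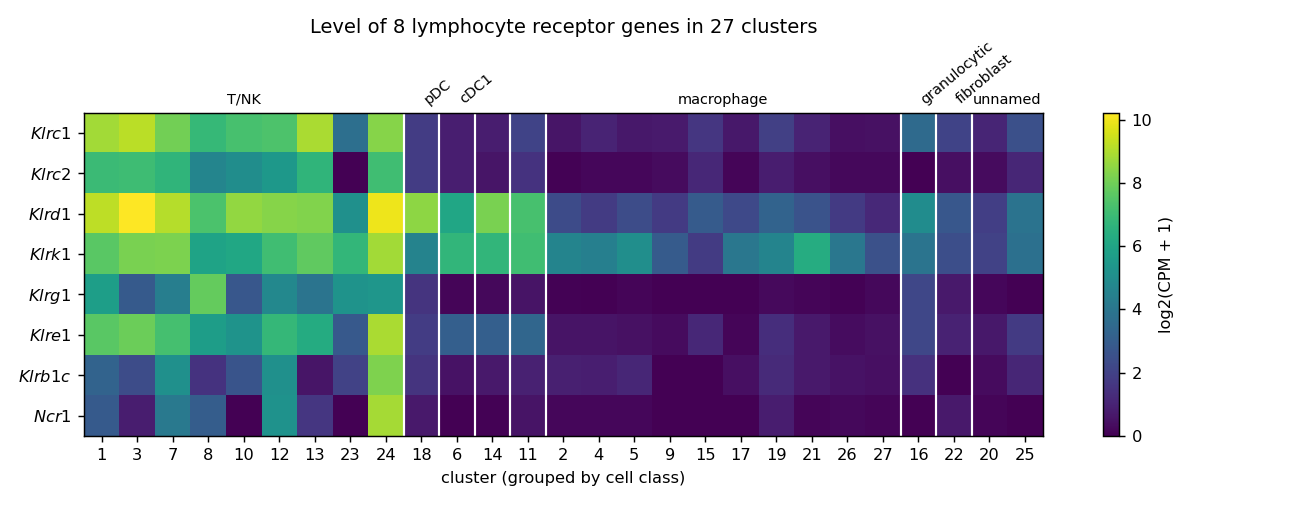
Levels of the 8 genes (rows) in the 27 clusters (columns, grouped by cell class), as colour on a log2(CPM + 1) scale. Klrb1c and Ncr1 are highest in the NK-like cluster 24 (304 and 453 CPM), Klrc1 and Klrd1 in the CD8 T-like cluster 3 (573 and 1193 CPM) and Klrg1 in the Treg-like cluster 8 (221 CPM), and Klrd1 and Klrk1 are the genes with colour in clusters 6, 11 and 14.

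The share of cells with at least 1 UMI was read after every cell had been thinned to 1000 UMIs, which left 9716 of the T/NK cells and put 2305 shallower ones aside. In NK-like cells 58.9% held Klrd1, 39.1% Klre1, 34.6% Klrk1, 34.0% Ncr1, 29.1% Klrb1c, 23.8% Klrc1 and 12.8% Klrc2. In CD8 T-like cells 61.7% held Klrd1, 42.9% Klrc1 (69.9% before thinning) and 13.4% Klrc2. In the macrophage cluster 2, which should lack most of these transcripts, the thinned shares were 0.336% for Klrd1, 0.0596% for Klrc1, 0.0921% for Klrb1c and 0.00542% for Ncr1, and 2.03% for Klrk1. In the Treg-like cells 22.5% held Klrg1.

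The mean number of the 8 genes detected per thinned cell was 2.353 in cluster 24, 1.663 in cluster 3, 1.164 in cluster 1 and 1.028 in cluster 7. At least 3 of them were found in 42.63% of NK-like cells and 22.04% of CD8 T-like cells, and none in 6.26% and 15.19%. The Treg-like and gamma delta T-like cells stood at the low end, with means of 0.378 and 0.16. These shares are over cells of all tumors, which are no replicates.

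Klrd1 was detected more often in cells that held its partner Klrc1 in most T-like clusters, but not in the NK-like cluster. The shares in this paragraph pool cells of all tumors, whose strains differ in these genes, and were not compared within single tumors. In cluster 1 it was found in 52.0% of cells with Klrc1 and 29.0% of the others, in cluster 13 in 31.4% and 17.1%, and in cluster 8 in 27.9% and 3.38%. In cluster 3 the shares were 67.0% and 57.8%, and in cluster 24 they were 56.3% and 59.7%. Ncr1 and Klrb1c were found together over T/NK cells (Ncr1 in 29.2% of cells with Klrb1c and 3.73% of the others) but hardly more often within cluster 24 (34.9% and 33.6%). Klrc1 and Klrg1 were apart over T/NK cells, with Klrc1 in 6.52% of cells with Klrg1 and 25.4% of the others. Of the 491 thinned cells with Klrg1, 351 were in the Treg-like cluster 8, where Klrc1 was in 2.28% and 5.89%. The shares were also lower in cells with Klrg1 in cluster 1 (17.65% and 34.75%) and cluster 24 (17.5% and 23.98%), with 17 and 40 such cells. In cluster 3, where 4 cells held both genes, the share was below the 43.0% of the others. No cell held both in clusters 10, 12 and 23, which had 3, 7 and 6 cells with Klrg1. In cluster 7 the shares were 18.4% and 19.96% and in cluster 13 they were 33.3% and 31.8%. These clusters had 38 and 9 cells with Klrg1.

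Outside lymphocytes, Klrd1 was found in clusters 6, 11, 14 and 18, which held little Klrc1. The plasmacytoid dendritic cells of cluster 18 (Siglech, Ccr9 and Klk1 list 3674 CPM, 3 of 3) held Klrd1 at 357 CPM, with a mean over 18 tumors of 361 ± 162 CPM (SD). Cluster 14, in which the macrophage list summed to 3156 CPM (6 of 7) and the cDC2 list to 386 CPM (1 of 3), held it at 287 CPM, with a mean over 47 tumors of 292 ± 144 CPM. Cluster 11, in which the cDC2 list summed to 567 CPM (2 of 3), the cDC1 list to 624.9 CPM (1 of 3) and the macrophage list to 582 CPM (3 of 7), held 149 CPM and the cDC1 cluster 6 (Xcr1, Clec9a and Irf8 list 1633 CPM, 3 of 3) 65.7 CPM. Klrc1 in these clusters ranged from 0.77 to 3.17 CPM, above the macrophage level of 0.575 CPM. The CD94 transcript was thus present there at a level near those of some T-like clusters while its NKG2A partner was low.

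Klrd1 in cluster 14 varied between strains. It was highest in CC079 at 444 ± 142 CPM (SD, n = 6 tumors, 358 to 724) and B6 at 422 ± 134 CPM (n = 6), and lowest in CC036 at 184 ± 41.7 CPM (n = 6) and CC001 at 203 ± 88.6 CPM (n = 8). By class the tumors of responder strains ran from 66.9 through a median of 212 to 457 CPM and those of non-responder strains from 130 through 330 to 724 CPM. Both groups overlapped, and their order was opposite to that in T/NK cells given below, with no test run in this cluster. In cDC1 cells CC079 was again highest, at 148 ± 35.5 CPM against strain means of 25.3 to 82.1 CPM.

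Klrk1 in clusters 6, 11, 14 and 18 stood at 105, 135, 104.5 and 22.5 CPM, and in the macrophages at 23.4 CPM. Cluster 21, a macrophage cluster, stood higher at 79.2 CPM. Over macrophages the tumors of responder strains ran from 6.33 through a median of 28.0 to 70.0 CPM and those of non-responder strains from 6.87 through 15.03 to 31.4 CPM, which overlapped. CC075 was highest at 33.8 ± 8.35 CPM (n = 6) and CC079 lowest at 11.5 ± 3.86 CPM (n = 6).

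Levels per tumor were then compared over the T/NK cells as a whole, in the 47 of 48 tumors with at least 20 such cells. In these summed cells, fewer cells of a type and less RNA per cell cannot be told apart, and strains differed in the clusters that made up these cells. Cluster 3 made up 29.6% (aPD1) and 33.4% (isotype) of the T/NK cells of responder strains on average, and 7.65% and 12.9% of those of non-responder strains. Cluster 24 made up 10.3% and 8.88% against 13.4% and 17.6%, and in CC079 the Treg-like cluster made up 43.8% and cluster 3 made up 4.4%.

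All 8 genes passed the test for any difference between the 8 strains (edgeR quasi-likelihood test, Benjamini-Hochberg adjusted p under 0.05), with 24.9% of 8458 genes tested doing so. With 1 in 4 genes called, the members' count says little about them by itself, and the sizes follow. The range between the highest and the lowest strain was 9.45-fold for Klrg1 (log2 3.24, adjusted p 0.000045 with edgeR) and 3.57-fold for Klre1 (log2 1.83, adjusted p 1.1e-06), and between 2.18-fold (Klrk1) and 3.54-fold (Ncr1) for the other 6. With the pool as a block, 6 of 8 passed, against 6.8% of the genes, without Klrg1 (adjusted p 0.057) and Klrb1c (adjusted p 0.063). Ncr1 did not pass without pools 2, 7, 11 or 12, nor Klrc2 without pool 5, so 7 of 8 passed in each of these fits. Within cluster 3 alone 4 of the 5 members tested passed (Klre1, Klrd1, Klrk1 and Klrc1), against 10.5% of the 5282 genes tested there, and within cluster 24 alone 2 of 7 did (Klrb1c and Klrd1), against 8.97% of 2151 genes.

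Klrc1 was highest in CC002 at 443 ± 93.3 CPM (SD, n = 6), followed by CC001 at 429 ± 156 CPM (n = 8), CC007 at 427 ± 180 CPM (n = 3) and B6 at 415 ± 164 CPM (n = 6), 4 strains that do not differ beyond their spread. CC075 at 298 ± 57 CPM and CC036 at 282 ± 48.8 CPM came next, and CC080 at 194 ± 42.3 CPM and CC079 at 170 ± 69.4 CPM were lowest (n = 6 each). Tumors of CC002 (302 to 556 CPM) lay above all tumors of CC080 (140.5 to 242 CPM) and CC079 (72.8 to 255 CPM). The classed strains thus fell in the order of their classes, with CC075 and CC036 next to each other.

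Klrc2 was lowest in the same strains, CC080 at 58.2 ± 17 CPM and CC079 at 38.2 ± 25.6 CPM, while the other 6 strains had means of 89.5 to 114 CPM that do not differ beyond their spread. CC036, a non-responder strain, stood among the high ones at 104 ± 34.2 CPM. Klrd1 ran from 933 ± 152 CPM in CC002 through 572 ± 98.4 CPM in CC080 to 437 ± 96.4 CPM in CC036 and 327 ± 152 CPM in CC079. Klrk1 was highest in CC007, B6, CC002 and CC075 (means of 277 to 299 CPM) and lowest in CC079 at 130 ± 69.9 CPM, with CC001 at 189 ± 50.6 CPM below CC036 at 207 ± 39.5 CPM.

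Ncr1 was highest in CC007 (101 ± 42.6 CPM, n = 3), CC080 (94.6 ± 55.5 CPM), CC036 (82.6 ± 67.9 CPM) and CC079 (78.6 ± 37.1 CPM), and lowest in CC075 (32.8 ± 32.1 CPM) and CC001 (31.4 ± 18.2 CPM), with spreads wide enough that neighbours in this order overlap. Klrb1c was lowest in CC002 at 26.8 ± 7.55 CPM and CC001 at 25.5 ± 17.3 CPM and highest in B6 at 72.2 ± 21.6 CPM, in which both haplotypes are of the reference. Klrg1 was highest in CC079 at 207 ± 75.9 CPM, with tumors at 121 to 313 CPM, against 24.96 ± 16.1 CPM in CC075, with tumors at 9.21 to 48.9 CPM. In the Treg-like cells, where Klrg1 is highest, the mean was 377 ± 126 CPM in CC079 (171 to 528), 258 ± 87 CPM in CC080 (to 365), 227 ± 34.6 CPM in CC002 and 214 ± 79.2 CPM in CC001 (to 320), against 98.5 ± 46.1 CPM in B6 and 103 ± 71.1 CPM in CC075. Tumors of CC080, CC002, CC001, CC036 (to 335 CPM), CC007 (to 252 CPM) and CC075 (to 188 CPM) overlapped those of CC079. Tumors of B6 (to 157 CPM) did not.

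**Figure D2:**
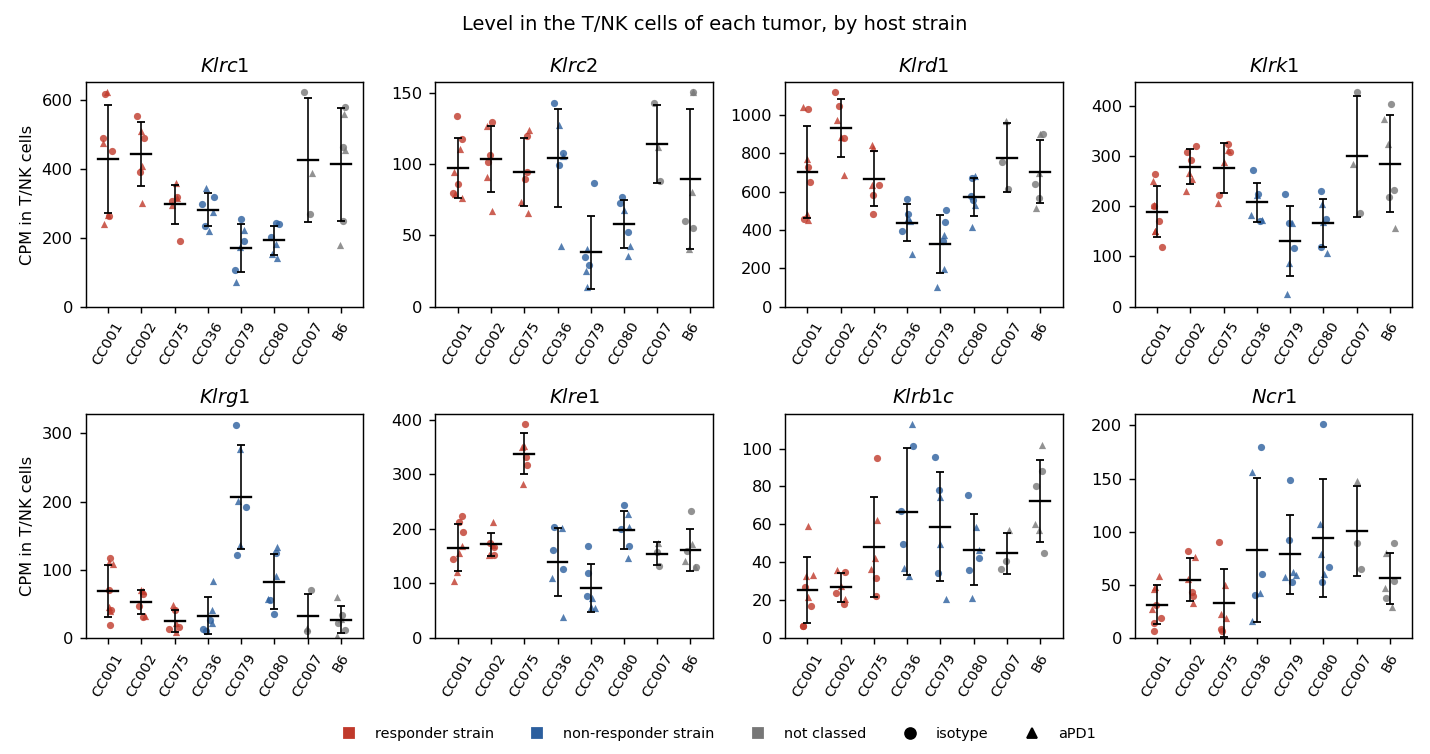
Level of each gene in the T/NK cells of every tumor with at least 20 such cells (points, CPM, circles for isotype and triangles for aPD1), by host strain and coloured by response class, with the strain mean (line) and SD (bars). Klrc1 is lowest on average in the 3 non-responder strains (170 to 282 CPM), Klrg1 stands out in CC079 (207 CPM) and Klre1 in CC075 (338 CPM).

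Klre1 separated 1 strain from the rest, a feature singled out after its values were seen. The tumors of CC075 held 352, 350.2 and 283 CPM with aPD1 and 332, 393 and 317 CPM with isotype in T/NK cells. The highest of the other 41 tumors held 243 CPM, so CC075 did not overlap them. The strain means were 338 ± 37 CPM in CC075 (n = 6) against 91.8 to 198 CPM elsewhere.

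CC075 was also highest for Klre1 within single clusters. In cluster 3 its tumors held 393 to 504 CPM (mean 441 ± 45.6, n = 5 with at least 10 cells) against strain means of 169 to 250 CPM and a highest other tumor of 369 CPM, and in cluster 24 they held 542 to 1367 CPM (868 ± 304, n = 5) against 406 to 487 CPM. Of the tests between strains within these 2 clusters, Klre1 passed in cluster 3 and not in cluster 24. In the T-like cluster 7 the mean was 385 ± 115 CPM (n = 6) against 25.3 to 160 CPM, and in the Treg-like cluster 8 it was 156 ± 15.4 CPM (136 to 174, n = 4) against 7.10 to 55.3 CPM. In clusters 24, 7 and 8 tumors of other strains reached 670 CPM, 316 CPM and 235 CPM and overlapped CC075. CC075 was in pools 9, 10 and 11 only, with CC036 and CC080, whose Klre1 means in T/NK cells were 140 ± 62.3 and 198 ± 35.6 CPM.

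**Figure D3:**
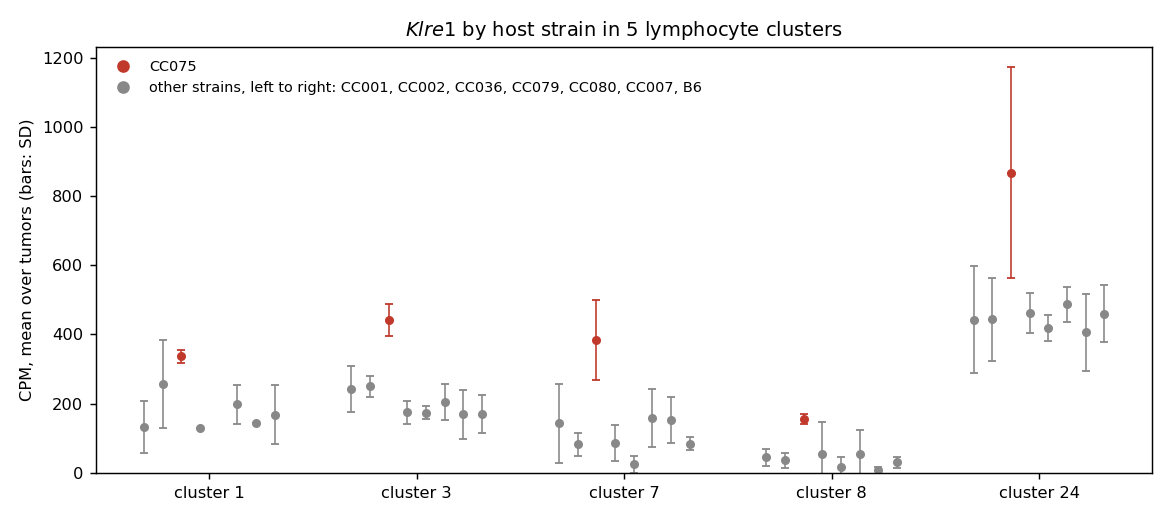
Mean level of Klre1 over tumors (points, CPM) with its SD (bars) by host strain in clusters 1, 3, 7, 8 and 24, with CC075 in red and the other strains in grey, a point without a bar being 1 tumor. The CC075 mean is the highest in each of these clusters, at 441 CPM in cluster 3 and 868 CPM in cluster 24.

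The study's question, whether strains that respond to aPD1 differ from those that do not, was then put to each gene as a contrast over tumors in T/NK cells (20 tumors of responder and 18 of non-responder strains, edgeR quasi-likelihood test, isotype and aPD1 weighted equally). The transcripts of the NKG2A receptor, Klrc1 and Klrd1, and of NKG2D, Klrk1, were called as higher in responder strains, and the NK cell genes Ncr1 and Klrb1c as lower. For Klrk1 and Klrb1c the strain means of both classes overlapped, as given below. In all 3 members were higher and 2 lower of 8, against 2.08% of 7219 genes called in either direction, 0.859% higher and 1.22% lower. The members' median log2 difference was 0.57 and that of all genes -0.01. With the libraries scaled by total count the genes called were 48 higher and 141 lower, against 62 and 88.

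Klrc1 ran from 190 through a median of 375 to 624.7 CPM in responder strains and from 72.8 through 222 to 345 CPM in non-responder strains. The groups overlapped between 190 and 345 CPM. The mean was 394 ± 128 against 215 ± 71.6 CPM, a log2 difference of 0.94 (SE 0.16, 95% interval 0.63 to 1.25, edgeR adjusted p 0.00025). In pools 1 to 5 alone the log2 difference was 1.48, and in pools 8 to 12 alone it was 0.33 and was not called.

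Klrd1 ran from 452 through 749 to 1119 CPM in responder strains and from 101 through 454 to 679 CPM in non-responder strains, with a log2 difference of 0.81 (SE 0.16, edgeR adjusted p 0.0029). Klrk1 ran from 119 through 252 to 323 CPM and from 24.8 through 172 to 271 CPM, with a log2 difference of 0.54 (SE 0.14, edgeR adjusted p 0.031). Both groups overlapped for either gene. Without CC002 the log2 differences were 0.66 for Klrd1 and 0.44 for Klrk1 and neither passed, and Klrk1 also did not pass without CC075 (0.47) or CC079 (0.42), or without pools 2, 5 or 10.

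Ncr1 ran from 6.38 through 36.5 to 90.3 CPM in responder strains and from 16.4 through 61.1 to 201 CPM in non-responder strains, with a log2 difference of -1.18 (SE 0.29, edgeR adjusted p 0.018). Klrb1c ran from 6.19 through 29.6 to 94.8 CPM and from 20.8 through 49.7 to 113 CPM, with a log2 difference of -0.83 (SE 0.22, edgeR adjusted p 0.034). The groups overlapped widely for both. Ncr1 did not pass without CC001 or CC080 (-1.06) or without pools 1, 2, 9, 11 or 12, and Klrb1c without CC001 (-0.66), CC002 (-0.73), CC036 (-0.70) or CC079 (-0.82), without pools 1, 2, 5, 9, 11 or 12, or without cluster 12 (-0.82).

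In pools 1 to 5 and in pools 8 to 12 alone the log2 differences were 0.99 and 0.59 for Klrd1, 0.73 and 0.35 for Klrk1, -0.77 and -1.65 for Ncr1 and -0.93 and -0.74 for Klrb1c, and none of these passed. With no filter on low counts Klrb1c did not pass either (-0.79).

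The other 3 genes did not pass in this fit but passed with the pool as a block, in which all 8 did, against 3.96% of the 7219 genes, and DESeq2 called 7 of the 8, against 3.12%. Klrc2 had a log2 difference of 0.59 (SE 0.17, edgeR adjusted p 0.054) and 0.76 with the block (edgeR adjusted p 0.0071). Klre1 had 0.60 (SE 0.20, edgeR adjusted p 0.10) and 0.70 with the block (edgeR adjusted p 0.018). Klrg1 had -1.02 (SE 0.38, edgeR adjusted p 0.17) and -1.06 with the block (edgeR adjusted p 0.030). Leaving out strains or pools moved these values. Klrc2 passed without CC036 (0.99), pool 8 (0.77) or pool 9 (0.68), in pools 1 to 5 alone (1.11, edgeR adjusted p 0.0074) and with DESeq2 (0.61), and was lowest at 0.38 without CC079 and 0.13 in pools 8 to 12 alone. Klrg1 passed without CC036 at -1.47, while it was -0.21 without CC079 (edgeR adjusted p 0.83) and -0.15 in pools 8 to 12 alone. Klre1 was 0.25 without CC075 (edgeR adjusted p 0.50) and 0.39 without CC079, and passed without CC001 (0.80), CC080 (0.99) or pool 3 (0.74).

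Taken by strain, the mean of each responder strain lay above that of each non-responder strain for Klrc1 and Klrd1, as for 2.35% of the 7219 genes, and below it for Ncr1, as for 6.23%. The strain means of the classes overlapped for the other members, among them the called genes Klrk1 and Klrb1c. Klrk1 stood at 188.5 CPM in CC001 and 207.2 CPM in CC036, and Klrb1c at 48.3 CPM in CC075 and 46.7 CPM in CC080. With 3 strains against 3, the smallest p that an exact test over strains can reach is 0.10. Marker lists in the same cells are given as values. The sum of Cd8a and Cd8b1 ran from 275 through 875 to 1254 CPM in responder strains and from 99.0 through 339 to 827 CPM in non-responder strains, and the 10-gene NK list from 2297 through 2909 to 4359 and from 1620 through 2752 to 3598 CPM. The NK list is not specific to NK-like cells, at 3369 CPM in cluster 3 and 3137 CPM in cluster 12 against 7358 CPM in cluster 24. Its sum over T/NK cells is therefore no measure of their number. The Treg list of 4 genes ran from 575 through 1084 to 1684 and from 691 through 1527 to 3101 CPM, and the macrophage list of 7 from 142 through 583 to 1678 and from 164 through 722 to 3850 CPM. The part of these lists in the differences over T/NK cells was not tested.

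Within the CD8 T-like cluster 3 (19 tumors of responder and 12 of non-responder strains with at least 10 of its cells), 4 of the 5 members tested were higher in responder strains. Of 4031 genes 0.769% were called in either direction and 0.447% as higher in responder strains. The 4 were Klrk1, Klrd1, Klrc1 and Klre1, with a members' median log2 difference of 0.69 against 0.01 for all genes. Scaled by total count, the genes called went from 18 higher and 13 lower to 7 and 12, and with DESeq2 to 16 and 18.

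Klrk1 ran from 109 through 307 to 481 CPM in responder strains and from 78.7 through 170 to 311 CPM in non-responder strains, which overlapped. Its log2 difference was 0.96 (SE 0.18, edgeR adjusted p 0.0034). Klrc1 ran from 327 through 629 to 855 CPM and from 220 through 423 to 516 CPM, with a log2 difference of 0.69 (SE 0.16, edgeR adjusted p 0.021).

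Klrd1 ran from 595 through 1345 to 2094 CPM and from 701 through 779 to 1368 CPM, with a log2 difference of 0.69 (SE 0.15, edgeR adjusted p 0.016), and with the pool as a block it was not called (log2 0.71, edgeR adjusted p 0.11). Klre1 ran from 170 through 255 to 504 CPM and from 117 through 185 to 253 CPM, with a log2 difference of 0.71 (SE 0.17, edgeR adjusted p 0.025). Without CC075 it was 0.43 and not called. Klrc2 had a log2 difference of 0.45 (SE 0.16, edgeR adjusted p 0.27). It was called without pool 8 (0.65, edgeR adjusted p 0.047) and ran from 0.26 without CC080 to 0.76 without CC036 on leaving out 1 strain or pool.

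Without CC002 none of the 4 passed, at log2 differences of 0.79 for Klrk1, 0.62 for Klrc1, 0.79 for Klre1 and 0.48 for Klrd1, and the genes called fell from 31 to 4. Only Klrk1 passed under total-count scaling or with at least 20 cells per tumor. Klrc1 was also not called without CC001 (0.57), CC079 (0.64) or pools 1, 3, 4 or 5, Klrd1 without CC036 (0.66) or pools 3, 5 or 9, and Klre1 without CC036 (0.57) or pools 8, 9, 10 or 11. In pools 8 to 12 alone Klrc1 had a log2 difference of 0.12 and Klre1, at 1.07, was the only call, while in pools 1 to 5 alone Klrc1 (1.16), Klrd1 (0.84) and Klrk1 (1.23) were called and Klre1 (0.37) was not. Across strains all 5 members had non-overlapping means, higher in each responder strain, as did 3% of the genes tested. The CC079 mean there rests on 2 isotype tumors with 24 cells in all, and Klrc2 separated only by 139 ± 28.4 CPM in CC075 against 136 ± 42.3 CPM in CC036. The CD8 list ran from 1080 through 1486 to 1895 CPM in responder strains and from 750 through 1058 to 1681 CPM in non-responder strains within this cluster. Cd4 ran there from 0 through 2.26 to 30.3 CPM and from 0 through 34.8 to 182 CPM. The Treg list ran from 349 through 522 to 1047 CPM and from 336 through 685 to 1554 CPM. The cells of this cluster may thus differ in type between classes, and the part of these markers was not tested.

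**Figure D4:**
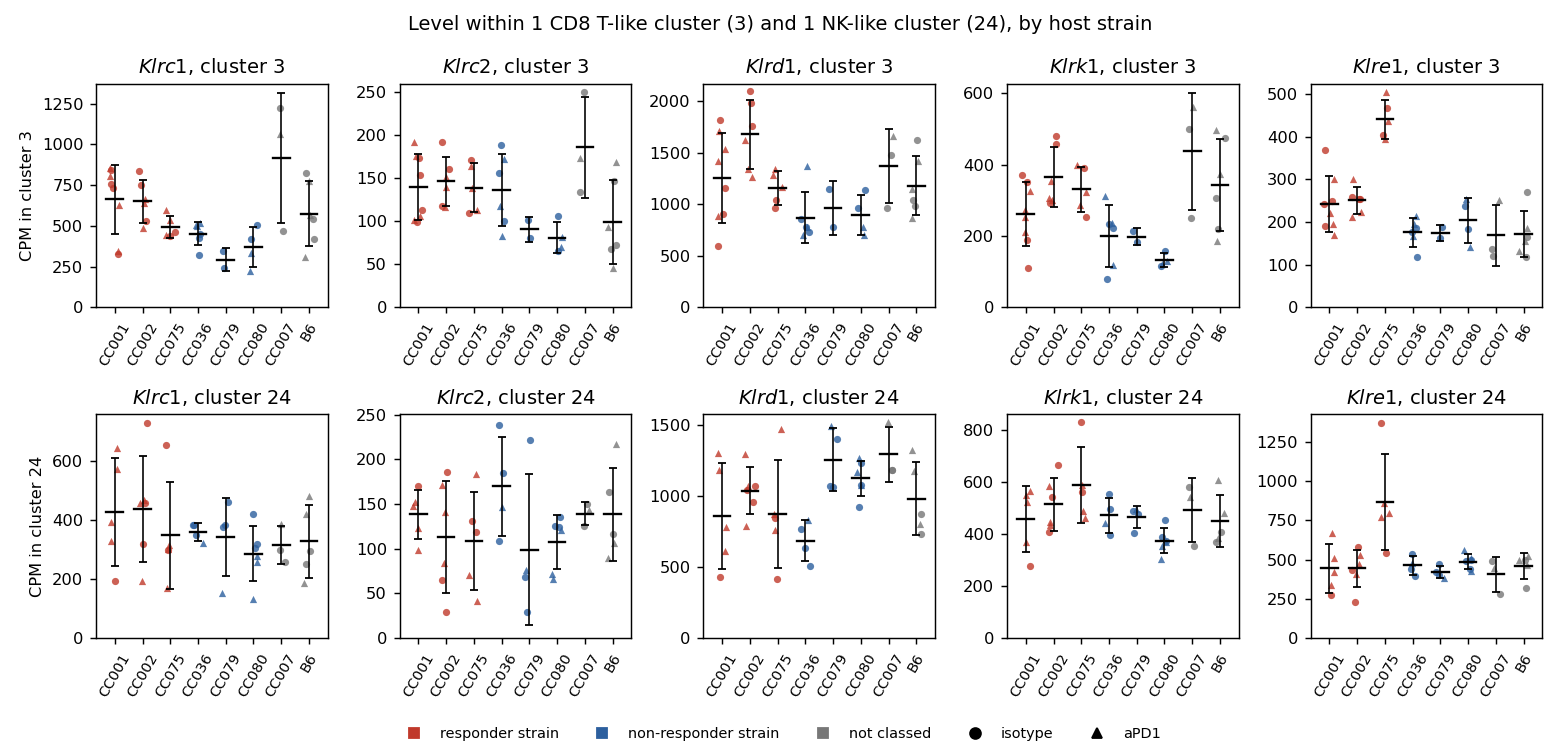
Level of 5 genes per tumor (points, CPM, circles for isotype and triangles for aPD1) by host strain, within the CD8 T-like cluster 3 (top) and the NK-like cluster 24 (bottom), for tumors with at least 10 cells of the cluster, with strain mean (line) and SD (bars). In cluster 3 the Klrc1 means are 495 to 662 CPM in CC001, CC002 and CC075 and 292 to 453 CPM in CC036, CC079 and CC080, and in cluster 24 the strain means of both classes overlap.

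Within the NK-like cluster 24 (16 and 14 tumors) 0 of the 7 members tested were called, against 0.066% of 1515 genes (127 genes at an unadjusted p under 0.05 with edgeR, 1 gene called with edgeR and 2 with DESeq2). Klrc1 ran from 168 through 361 to 726 CPM in responder strains and from 133 through 335 to 461 CPM in non-responder strains, with a log2 difference of 0.45 (95% interval 0.07 to 0.83). The intervals are not adjusted over genes, while the calls are. Ncr1 ran here from 256 through 546 to 740 CPM and from 260 through 416 to 695 CPM, with a log2 difference of 0.23 (95% interval -0.09 to 0.54). Klrb1c had 0.30 (95% interval -0.13 to 0.73) and Klrd1 -0.25, and the lowest edgeR adjusted p was 0.55. In pools 1 to 5 alone Klrc1 (1.01) and Ncr1 (0.80) were called as higher in responder strains, and in pools 8 to 12 alone their log2 differences had the opposite sign (-0.12 and -0.30) and were not called.

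Klrb1c varied between strains within the NK-like cells. CC075 (524 ± 147 CPM) and B6 (479 ± 128 CPM) were highest, and CC080 was lowest at 175 ± 49.8 CPM, with tumors at 120 to 248 CPM. Ncr1 was highest in CC002 (605 ± 148 CPM) and lowest in B6 (365 ± 127 CPM) and CC080 (370 ± 74.4 CPM), spreads that overlap. Klrd1 ran from 683 ± 144 CPM in CC036 to 1253 ± 221 CPM in CC079 and 1291 ± 195 CPM in CC007, so the strain with the least Klrd1 over T/NK cells was near the top within NK-like cells.

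Within the T-like cluster 1 (10 tumors of responder strains, and 3 of CC080 and 1 of CC036 with none of CC079) 0 of the 6 members tested passed, against 0.0824% of 2428 genes (2 genes called with edgeR, 4 with DESeq2, and 124 at an unadjusted p under 0.05). The log2 difference of Klrc1 was 0.99 (edgeR adjusted p 0.54), with Klrd1 at 0.85, Klrk1 at 1.10, Klrc2 at 1.13, Klre1 at 0.10 and Klrg1 at -0.31.

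Over all cells of a tumor, 1 of 8 members was called, against 3.2% of 13503 genes. Klrc1 ran from 4.82 through 26.9 to 122.5 CPM in responder strains and from 2.25 through 10.8 to 126.5 CPM in non-responder strains, with a log2 difference of 1.41 (SE 0.41, edgeR adjusted p 0.043) and the same call with the block (1.76). It was not called with total-count scaling (1.37) or no filter on low counts (1.42), nor without CC002 (1.06), CC079 (0.94) or CC080 (1.57), nor without pools 1, 2, 3, 5, 9, 11 or 12. It was also not called without the 2 CC080 tumors of 1 animal identifier (1.38) or the tumors under 500 cells (1.28), nor in pools 1 to 5 (2.05) or 8 to 12 (0.81) alone. Klrc2 was called without CC036 (1.60) or pool 8 (1.42), Klrk1 without CC001 (0.86) and Klre1 without CC080 (1.65). Over all cells, the number of lymphocytes and the level per cell cannot be told apart, and the sort on CD45 set the share of immune cells.

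**Figure D5:**
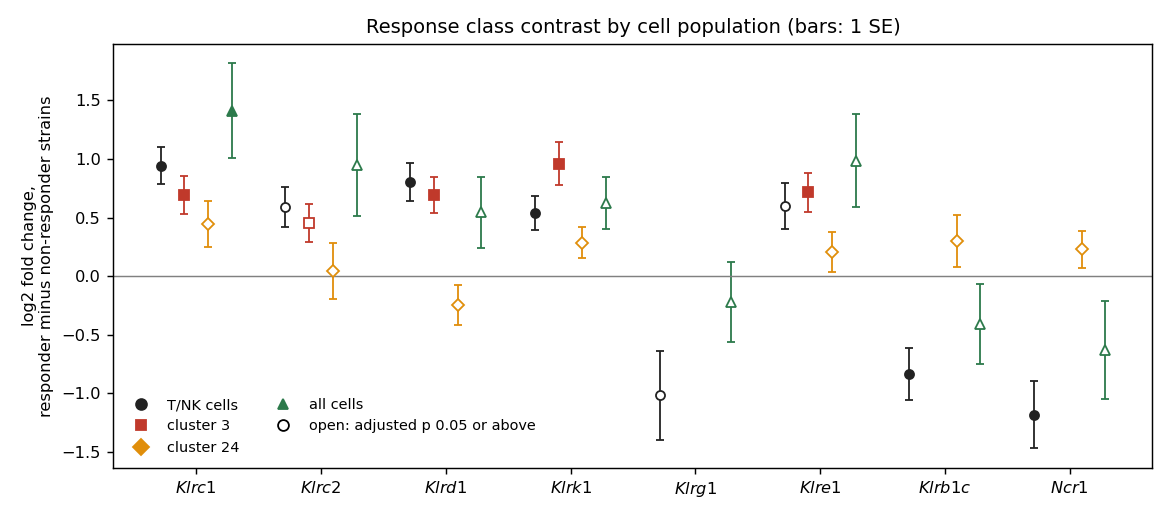
Log2 difference between responder and non-responder strains (points) with its SE (bars) for each gene tested in T/NK cells, cluster 3, cluster 24 and all cells, with filled points for an edgeR adjusted p under 0.05. Klrc1 is at 0.94 in T/NK cells, 0.69 in cluster 3 and 0.45 in cluster 24, and Ncr1 is at -1.18 in T/NK cells and 0.23 in cluster 24.

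The genes around these receptors were read from 4 lists. These counts stand beside 2.08% of all genes called in T/NK cells. Of 13 other lectins of the NK complex, 8 were tested there, 0 were higher and 1 was lower in responder strains: Klrb1f at a log2 difference of -1.20 (SE 0.25, edgeR adjusted p 0.0038). The median of this list was -0.61 against -0.01 for all genes. Of 12 adaptor and signalling genes, 11 were tested. Ptpn6, the phosphatase recruited by NKG2A, was higher (0.57, edgeR adjusted p 0.016) as was Zap70, a kinase of T cell receptor signalling (0.32, edgeR adjusted p 0.032), and Tyrobp, the adaptor of NKG2C and a marker of the NK list, was lower (-0.87, edgeR adjusted p 0.016). Tyrobp stood at 3145 CPM in macrophage cluster 2, 1987 CPM in cluster 24, 1586 CPM in cluster 12 and 32.8 CPM in cluster 3. The part of each in its difference was not tested. Of 14 ligand genes 3 were tested and 0 called, and of 12 regulators 12 were tested and 0 called.

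Within cluster 3 the ligand gene H2-T23, which encodes Qa-1, was higher in responder strains (log2 0.66, edgeR adjusted p 0.013), 1 of 2 ligands tested beside 0.769% of all genes, and it was higher over all cells too (0.69, edgeR adjusted p 0.0082). The other 3 lists had 0 calls in cluster 3, and all 4 had 0 in clusters 1 and 24. Over all cells, where 3.2% of genes were called, 3 of 10 other lectins tested were lower in responder strains (Clec2g -1.13, Clec2i -0.75 and Klri1 -0.72), as was Cdh1, the E-cadherin ligand of KLRG1 (-1.02, edgeR adjusted p 0.011), which with H2-T23 made 2 of 8 ligands tested. Between strains in T/NK cells 6 of 10 other lectins, 6 of 11 adaptors, 1 of 4 ligands and 4 of 12 regulators were called, beside 24.9% of all genes.

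Against isotype at 48 hours, a change with aPD1 was called for 0 of 8 members in responder strains (0% of 7219 genes, 211 at an unadjusted p under 0.05 with edgeR) and 0 of 8 in non-responder strains (0%, 254 genes). The fit had no term for strain, so differences between strains of a class stayed in its residual spread. No fit of aPD1 modelled the pair of isotype and aPD1 tumors of a strain in a pool. A change that was not called is thus not shown to be absent. DESeq2 called 0 and 1 gene, and the fit with the pool as a block 0 and 3. In responder strains the log2 changes ran from -0.20 for Klrc2 to 0.54 for Ncr1, and in non-responder strains from -0.46 for Klrc2 to 0.17 for Klrg1. Klrc1 changed by -0.10 (95% interval -0.51 to 0.30) and -0.27 (-0.72 to 0.19), and neither interval reached 0.94, the size of its difference between classes, in either direction.

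The difference of the aPD1 effects between classes was called for 0 of 8 members and 0% of genes (236 at an unadjusted p under 0.05 with edgeR, 0 with DESeq2). It was largest for Ncr1 at 0.94 (95% interval -0.19 to 2.06) and Klrb1c at 0.84 (-0.03 to 1.71). Ncr1 in responder strains was 43.6 ± 18.1 CPM with aPD1 (n = 10) and 34.2 ± 30.5 CPM with isotype (n = 10), and in non-responder strains 71.2 ± 40.2 and 99.4 ± 60.9 CPM (n = 9 each). All 4 groups overlapped, and at this number of tumors a difference of this size was not told from 0.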

How the data were processed

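Single-cell 5′ RNA sequencing libraries of 48 tumors in 12 pools were used, with 88816 to 17713491 UMIs per tumor. The authors deposited UMI counts per gene and cell from Cell Ranger on mm10 (GRCm38) with a cluster number and tumor for each cell (Seurat 5.0.1 in the processing notes), and whether doublets were removed is not given in the sources used here. Isotype CC080 in pool 3 and aPD1 CC080 in pool 4 carry 1 animal identifier.

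Counts were summed by tumor over T/NK cells (at least 20), single clusters (at least 10 cells) or all cells. Response class and aPD1 were tested with edgeR 4.0.16 (quasi-likelihood, TMM, low counts filtered, R 4.3.3), with p-values adjusted over all genes tested at a threshold of 0.05. The code was first run on simulated data, which held no pool effect and, for the class test, no strain effect. The simulation thus cannot show how the class test behaves with strains nested in class. The strain test compared all 8 strains. DESeq2 1.42.0, other scaling, no filter, pool subsets, cell minimums and leaving out each strain, pool or cluster 12 were alternatives, and tumors under 500 cells and single-cluster strain tests were added after seeing the data. Gene profiles were compared over 27 clusters among genes of at least 50 CPM in 1 of them, and the 2 genes with the highest Pearson r are named per member. Named genes are the 8 members and the called genes of 4 lists. The members and lists were chosen with earlier results of these data known.

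The labels place 4 tumors of a pool in 1 shared library. Deviations from the means of class and treatment groups correlated above 0.1 in 17 of 19 same-strain pairs of a pool (lowest 0.083, median 0.286), against medians of 0.116 for other strains of the pool and -0.039 between pools. Strain differences were left in these deviations, so pool and strain cannot be told apart in the same-strain pairs. The pool was taken as a pairing in the alternative fits with the pool as a block, which had no term for a strain's pair of tumors within a pool. The main fits, also those of aPD1 against isotype, did not model the pool. Tables were handled with Python 3.11.15, pandas 2.3.3, numpy 2.4.6 and scipy 1.17.1, and figures drawn with matplotlib 3.10.9.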

Additional observations from a re-analysis of the deposited data

Results flagged for a closer look

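In 8 of 138 groups of a strain's tumors the highest or the lowest tumor stood apart from the others by Dixon's criterion at 95%, for genes with at least 20 counts in the group. Chance alone flags about 1 group in 20, so this number is near what chance gives.

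In T/NK cells, Klre1 in the CC002 aPD1 tumor of pool 3 was 212 CPM against 153 to 174 CPM in the other tumors of the strain. Klrc1 in the CC075 isotype tumor of pool 10 was 190 CPM against 297 to 359 CPM. Klrc2 in the CC079 isotype tumor of pool 1 was 87.1 CPM against 13.9 to 40.2 CPM, and Ncr1 in the CC080 isotype tumor of pool 11 was 201 CPM against 52.9 to 107 CPM. The first lay within the range of other responder strains, and the Klrc1 value was the lowest of the 20 tumors of responder strains.

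In single clusters the numbers of cells were small. Klrd1 in cluster 3 of the CC036 aPD1 tumor of pool 10 was 1370 CPM (66 counts in 18 cells) against 703 to 858 CPM. Klre1 in the NK-like cells of the B6 isotype tumor of pool 6 was 318 CPM (74 counts in 102 cells) against 465 to 523 CPM. In the NK-like cells of the CC002 isotype tumor of pool 12, Klrb1c was 145 CPM (5 counts in 15 cells) against 261 to 308 CPM, and Ncr1 was 318 CPM (11 counts) against 596 to 740 CPM.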

How the results depend on the processing

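For the class difference in T/NK cells the number of genes called was 150, and 234 with no filter on low counts, 34 in pools 8 to 12 alone and 89 to 298 when a strain or pool was left out (95 without CC002, 247 without CC075, 294 without CC036, 298 without CC080, 93, 89, 96 and 99 without pools 2, 5, 9 and 11). DESeq2 called 7 of the 8 members and 3.12% of all genes. Klrk1 was not called without the 2 CC080 tumors of 1 animal identifier (log2 0.49). In cluster 3 the count was 31, and 19 with total-count scaling, 108 with no filter and 4 to 138 on leaving out a strain or pool (58 without CC001, 4 without CC002, 52 without CC036, 138 without CC080, and 18, 20 and 14 without pools 4, 5 and 9). In cluster 24 it was 1, and 2 with total-count scaling and with DESeq2, 28 with no filter, 47 in pools 1 to 5 alone and 1 to 59 on leaving 1 out, the highest without CC036. In cluster 1 it was 2, with 4 by DESeq2, 5 with no filter and 2 to 3 on leaving 1 out. Over all cells it was 432, with 145 in pools 1 to 5, 147 in pools 8 to 12 and 246 to 594 on leaving 1 out (246, 261 and 275 without pools 2, 5 and 9), and total-count scaling moved the split from 264 higher and 168 lower to 229 and 223. For aPD1 in non-responder strains DESeq2 called 1 gene, and leaving 1 out gave 0 to 0 in both classes and for their difference. For strains the count was 2109, with 556 in cluster 3 alone and 193 in cluster 24 alone, both added after seeing the data, and 1227 (without pool 9) to 2838 on leaving 1 out. With no filter the median log2 of all genes was 0.20 in cluster 3, -0.18 in cluster 24 and 0.41 in cluster 1. The cause was not tested for any of these.

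With the pool as a replicate block the genes called were 286 in T/NK cells, 18 in cluster 3, 3 in cluster 24, 8 in cluster 1, 3 for aPD1 in non-responder strains, 575 for strains and 595 over all cells. Beyond those given with the results, the block changed no call of a member.

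Directions reversed only for members that were not called. In cluster 24 these were Klrc1 in pools 8 to 12 (-0.12), Klrc2 with no filter (-0.13) and without the 2 CC080 tumors (-0.012), Klre1 with no filter (-0.010) and Ncr1 in pools 8 to 12 (-0.30). Leaving out a strain or pool there gave -0.12 to 0.12 for Klrc2, -0.13 to 0.38 for Klre1, -0.19 to 0.58 for Klrb1c and -0.16 to 0.44 for Ncr1. In cluster 1 Klrg1 was 0.67 with the block and -1.29 to 0.028 on leaving 1 out, and Klre1 -0.15 to 0.50. Over all cells Klrg1 was 0.23 in pools 8 to 12 and -0.57 to 0.15 on leaving 1 out. Cluster 1 could not be fitted in either pool subset, without CC036, CC080 or pools 3, 4 or 8, without the 2 CC080 tumors, or with at least 20 cells. Averaged over tumors, 71 cluster levels moved by less than their spread and 1 by more. Without thinning, 62 shares of cells with a UMI moved beyond their interval and 10 did not.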
